A study of Mus musculus with 12 samples.

Results

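Mammary glands of pregnant mice were compared for 8 genes that serve the immune defence of milk: Ccl28, Madcam1, Jchain, Pigr, Fcgrt, Defb1, Sftpd and Lao1. They were 8 of the 21956 genes in the protein-coding tables and were picked by symbol. Pigr, Jchain, Madcam1 and Fcgrt were taken for their role in antibody transfer. Ccl28, Defb1, Sftpd and Lao1 were taken because earlier values of these same libraries had shown levels particular to Met, so their levels are described here and carry no test. All 8 had a mean of at least 1 FPKM (fragments per kilobase of transcript, relative to the fragments mapped in a library, so a level per length), the minimum for testing, as did 11809 genes in all. Ccl28 passed it through its level in Met, since its mean was 0.626 in Met-Met.

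Milk protects the newborn with antibodies and with proteins made by the gland itself. Plasma cells that make IgA are drawn into the gland by the chemokine Ccl28 and by adhesion molecules on the vessel wall. Madcam1 is a vessel wall adhesion molecule that lymphocytes bind, and whether it draws these plasma cells was not tested here. Plasma cells join IgA into polymers with Jchain, and the receptor made by Pigr carries these through the epithelial cell into milk. Fcgrt encodes the neonatal Fc receptor, which binds IgG, and Defb1, Sftpd and Lao1 encode secreted proteins that act on microbes.

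All 12 libraries came from the inguinal gland (number 4) of mice of the outbred ICR stock on pregnancy day 17, with 4 libraries per group. Control is described only through its control diet. Met mice ate food without methionine from the start of pregnancy, with methionine injected into the peritoneum at 35% of the control diet's content. Met-Met mice were treated like Met, but 25% of the injected methionine was given as the dipeptide methionyl-methionine. Comparisons with Control therefore join diet, amount and injection, which cannot be told apart, whereas Met-Met against Met concerns the partial replacement by the dipeptide. No label states that the 4 libraries of a group are 4 different mice. A p-value here therefore covers the spread among libraries, part of which may be technical.

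Levels are FPKM scaled to a common median, given as mean ± SD (n = 4 per group), and fold changes are on the log2(scaled FPKM + 1) scale, which understates changes of low genes. A gene was called when limma, fitted over all 12 libraries, gave an adjusted p under 0.05 over all tested genes. Epithelial identity was seen in every library: 10 luminal markers summed to 908 to 1240.0 scaled FPKM and none was at 0. Other markers moved with the groups. The 7 myoepithelial markers summed to 226 to 294 in Met, 419 to 483 in Control and 383 to 445 in Met-Met, and the 7 macrophage markers to 63.5 to 75.6, 84.0 to 110.3 and 80.2 to 107. The 6 adipocyte markers summed to 924 to 1213 in Met, 1668 to 2035 in Control and 468 to 1272 in Met-Met, and the part of these cells in the results was not tested. Some libraries stood apart within their group. Averaged over 10 B cell markers, log2 levels were 2.45 to 2.93 in Control 1 to 3 and 1.25 to 1.28 in Met-Met 1, Met-Met 3 and Met 4. They were 0.0685 to 0.280 in the remaining 6, Control 4 among them. The highest levels were thus all in Control, and in comparisons with Control their part cannot be told apart from that of the group. The noncoding RNA Gm26917 reached 9013 to 9305 FPKM in Met-Met 2, Met 3 and Met 4 and 72.3 to 99.2 in the remaining 9, and skeletal muscle markers summed to 226 in Met 2 and to at most 5.34 elsewhere.

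**Figure D1:**
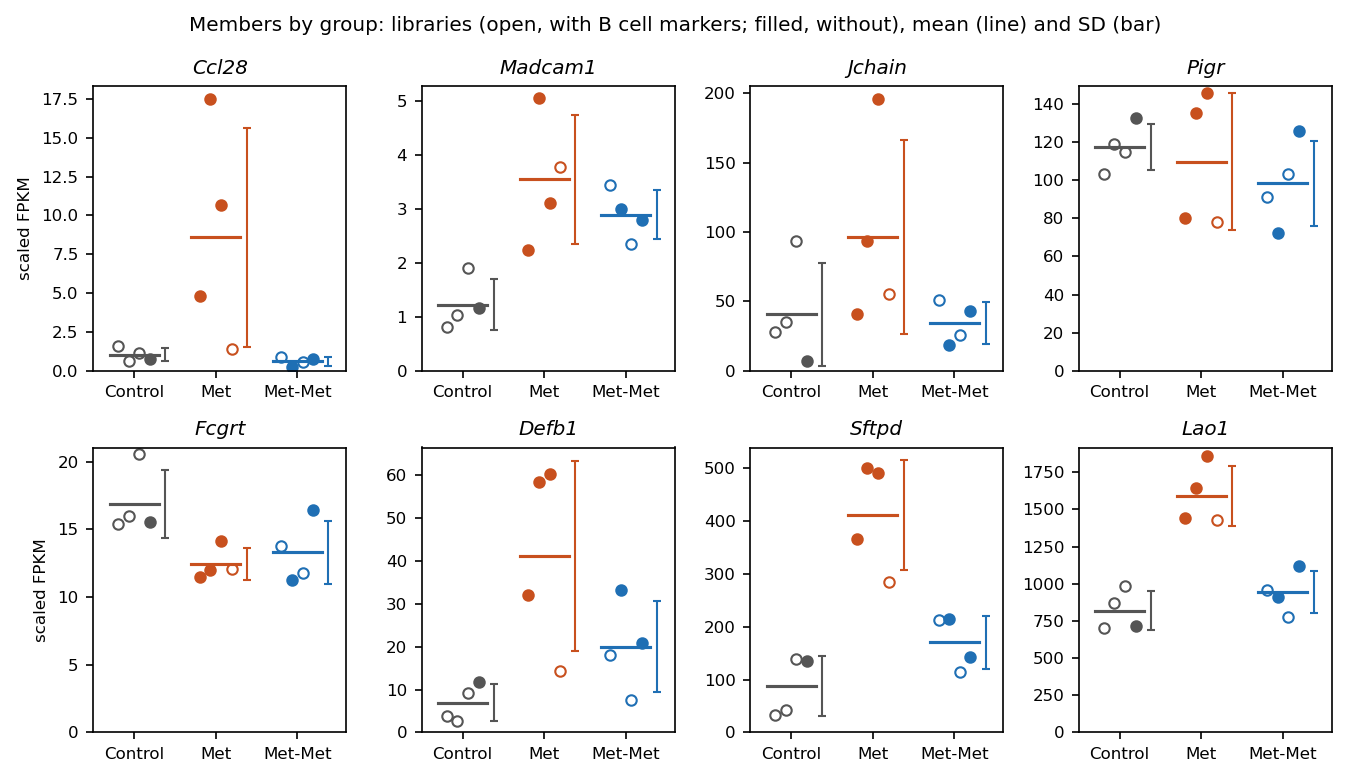
Scaled FPKM (vertical axis, from 0) of the 8 genes in Control, Met and Met-Met, with each point a library, the line the group mean and the bar 1 SD; open points are the 6 libraries with B cell markers. Ccl28, Defb1, Sftpd and Lao1 are high in Met with Met 4 as the lowest Met library. Madcam1 is higher in Met and Met-Met than in Control, and Pigr overlaps between all 3 groups.

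The ligand that draws IgA plasma cells, Ccl28 (chromosome 13), was at 1.60, 0.652, 1.18 and 0.746 scaled FPKM in Control 1 to 4. In Met it was at 4.82, 17.5, 10.7 and 1.38, and in Met-Met at 0.868, 0.245, 0.592 and 0.797. Met 1, 2 and 3 stood above every other library, Met 4 lay within the Control range, and Met did not overlap Met-Met. The group means were 8.59 ± 7.06 in Met, 1.05 ± 0.438 in Control and 0.626 ± 0.279 in Met-Met. Met therefore averaged 8.20 times Control and 13.7 times Met-Met, with log2 differences of 1.88 and, for Met-Met minus Met, −2.20. Ccl28 had the widest range of the 8 genes, 71.2-fold from the lowest to the highest library, and a Met SD close to the Met mean. Met 4 was also a library with B cell markers, with high Gm26917 and with the lowest luminal marker sum, and the part of each in its low Ccl28 was not tested.

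Receptors for this step were sparse. Ccr10, the receptor of Ccl28 on IgA plasma cells, stayed between 0.0426 and 0.503 scaled FPKM and below the minimum for testing. Ccl27a, the other ligand of Ccr10, was at 1.27, 1.75, 1.82 and 1.20 in Control, at 2.94, 3.36, 2.47 and 2.02 in Met, and at 1.39, 1.69, 0.844 and 2.83 in Met-Met. Its 4 Met libraries lay above all 4 Control libraries, as did those of 13.5% of all tested genes. The difference missed the threshold (log2 fold change 0.55, adjusted p = 0.0551 with limma).

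The window around the start of Ccl28, 250 bases before to 50 bases after it, is shown because this gene had the widest fold range. Sequences are from RefSeq, build GRCm38.p6, in the direction of the gene. Ccl28 lies on the plus strand at chr13:119623569-119623868, and 4 motifs were searched on both strands: TTCNNNGAA (STAT), TGATGNAA (ATF4), the interferon-stimulated response element and the NF-kB site.
Ccl28: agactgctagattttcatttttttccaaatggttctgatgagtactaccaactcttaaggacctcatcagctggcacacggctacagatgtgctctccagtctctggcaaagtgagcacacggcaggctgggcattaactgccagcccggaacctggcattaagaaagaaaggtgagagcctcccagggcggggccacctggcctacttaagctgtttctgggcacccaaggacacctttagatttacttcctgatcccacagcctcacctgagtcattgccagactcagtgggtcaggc
None of the 4 motifs has a match in this window, which says only that these letters are not there. Over the 32851 windows of the table, STAT letters were in 8.30%, NF-kB letters in 4.51%, ATF4 letters in 3.97% and the interferon response element in 3.44%. The table held windows for 6 of the 8 genes, all but Defb1 and Sftpd.

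Madcam1 (chromosome 10), the vascular addressin that lymphocytes grip through the integrin of Itga4 and Itgb7, was higher in Met and Met-Met than in Control. It was at 0.812, 1.03, 1.91 and 1.16 scaled FPKM in Control, at 2.25, 5.06, 3.11 and 3.77 in Met, and at 3.45, 2.99, 2.35 and 2.79 in Met-Met. Every library of Met and of Met-Met lay above the highest Control library. Met averaged 3.55 ± 1.19, Met-Met 2.90 ± 0.458 and Control 1.23 ± 0.479. The log2 fold change was 1.02 (SE 0.19, limma adjusted p = 0.00305) for Met against Control and 0.82 (SE 0.19, adjusted p = 0.0124) for Met-Met against Control. Met-Met and Met differed by −0.19, with a 95% interval from −0.61 to 0.22 and an adjusted p of 0.542. Both calls against Control were kept when each library was left out in turn (0.86 to 1.17 for Met, 0.73 to 0.96 for Met-Met). Without the 6 libraries with B cell markers, which leaves Control 4 as the only Control and assumed to vary like the rest, the fold changes were 1.00 (adjusted p = 0.214) and 0.85 (adjusted p = 0.392). Over all alternatives the adjusted p ran from 0.00166 to 0.214 for Met and from 0.00654 to 0.392 for Met-Met.

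The 5 markers of lymph node stroma and high endothelial venules summed to 35.8, 50.1 and 44.8 scaled FPKM in Control 1 to 3, where Madcam1 was between 0.812 and 1.91. They summed to 3.05 in Control 4 and to 4.01, 4.33, 3.83 and 28.7 in Met. The Met-Met sums were 17.4, 1.20, 14.0 and 2.41, and the stromal chemokine Ccl19 was at 0 in 8 libraries, Control 4, Met 1 to 3 and all 4 of Met-Met. In Met 1 to 3 and in Met-Met 2 and 4 these sums were at most 4.33 and Madcam1 was above its highest Control level. General endothelial markers summed to 84.1 to 85.8 in Control, 61.7 to 75.9 in Met and 55.7 to 81.9 in Met-Met. The part of either cell type in the Madcam1 difference was not tested.

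The Madcam1 window (plus strand, chr10:79664309-79664608) is shown for a pair of NF-kB matches, in capitals, which lie 83 to 74 and 70 to 61 bases before the start and do not overlap each other. Both read as the site on the opposite strand.
Madcam1: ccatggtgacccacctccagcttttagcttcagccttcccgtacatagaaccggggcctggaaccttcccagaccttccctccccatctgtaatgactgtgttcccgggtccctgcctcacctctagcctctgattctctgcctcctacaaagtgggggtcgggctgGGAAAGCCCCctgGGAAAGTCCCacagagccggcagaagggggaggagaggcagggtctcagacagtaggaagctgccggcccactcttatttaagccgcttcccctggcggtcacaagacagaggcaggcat
Of the 6 windows only that of Madcam1 held this motif, against 4.51% of all windows.

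Itga4 and Itgb7, which form the integrin that binds Madcam1, had their highest levels in Control 1 to 3, libraries with B cell markers. Itgb7 was at 7.45, 8.62 and 8.78 scaled FPKM in Control 1 to 3 and at 0.572 in Control 4. It was at 0.461, 0.825, 0.928 and 2.86 in Met and at 2.49, 0.706, 2.23 and 0.694 in Met-Met. Itgb7 did not pass the test (log2 fold change −1.49 in Met and −1.32 in Met-Met against Control, adjusted p = 0.0579 and 0.107). Itga4 fell in Met (1.27 ± 0.461 against 4.11 ± 2.25, log2 fold change −1.03, adjusted p = 0.0422), but the call was lost in 10 of the 12 fits that leave out a library (adjusted p up to 0.122). Without the libraries with B cell markers the Itga4 fold change turned to 0.17 (adjusted p = 0.707, and 3.21e-04 to 0.714 over its alternatives). In tissue libraries such as these, fewer cells of a type and less RNA per cell cannot be told apart.

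Jchain (chromosome 5), which links IgA into the polymers that the epithelium takes up, varied more between libraries than between groups. It was at 28.3, 34.9, 93.6 and 6.85 scaled FPKM in Control, at 40.8, 93.8, 195.6 and 55.6 in Met, and at 51.2, 18.7, 25.9 and 43.0 in Met-Met. Met 3 was the highest library and Control 4 the lowest, and all 3 groups overlapped. Means were 40.9 ± 37.1 in Control, 96.4 ± 69.8 in Met and 34.7 ± 15.0 in Met-Met. No comparison passed the test: the log2 fold change of Met against Control was 1.45 (95% interval 0.00 to 2.91, adjusted p = 0.124). Met-Met stood at 0.16 against Control (−1.29 to 1.61, adjusted p = 0.891) and at −1.29 against Met (−2.75 to 0.16, adjusted p = 0.226). With the B cell marker mean as a covariate the Met difference was 2.62 (adjusted p = 0.0368), and without Control 3 it was 2.01 (adjusted p = 0.0359), while the alternatives ran from 0.0359 to 0.365. Without the 6 libraries with B cell markers the differences from Control were 3.55 in Met and 1.91 in Met-Met (adjusted p = 0.136 and 0.424).

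The gene most like Jchain across the 12 libraries was Mzb1, a chaperone of antibody-secreting B cells, with a root mean square difference of 0.62 log2 units after centring. Mzb1 was at 4.79, 4.32, 15.3 and 0.384 scaled FPKM in Control, at 1.70, 5.54, 9.48 and 3.67 in Met, and at 3.17, 2.00, 1.75 and 2.58 in Met-Met. Both genes were highest within their group in Control 3 and Met 3 and lowest of all in Control 4. They were not in a fixed ratio: Jchain per Mzb1 was 5.91, 8.08, 6.12 and 17.9 in Control, 24.0, 16.9, 20.6 and 15.1 in Met, and 16.2, 9.39, 14.8 and 16.7 in Met-Met. The 3 Control libraries with B cell markers had the lowest ratios of all 12. The sum of the 5 plasma cell markers, Mzb1 included, ranged from 3.12 to 30.7 in Control, from 5.98 to 19.1 in Met and from 7.64 to 12.9 in Met-Met.

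**Figure D2:**
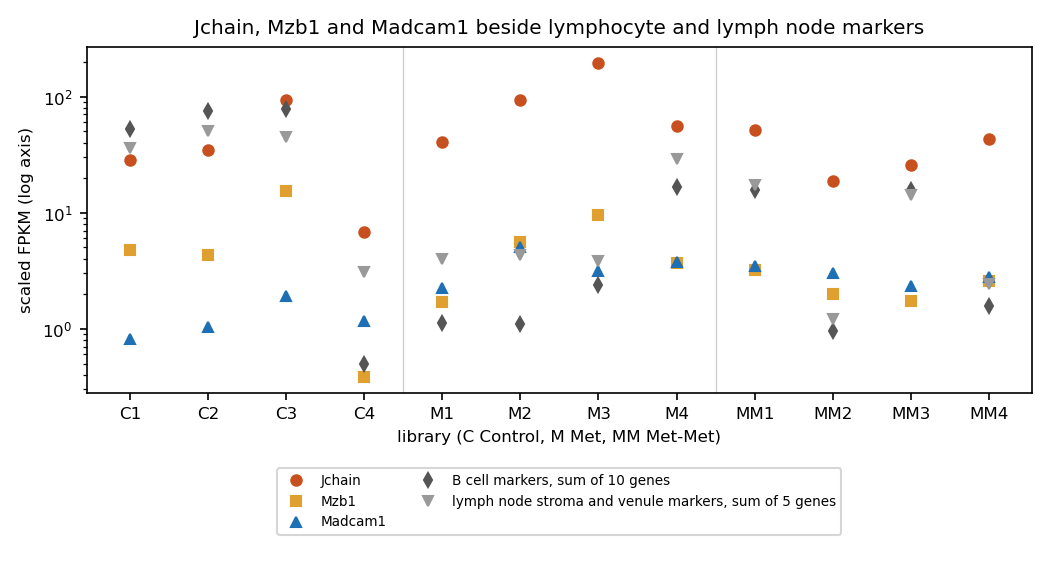
Scaled FPKM on a log axis for Jchain, Mzb1, Madcam1 and the summed B cell and lymph node markers in each of the 12 libraries (C Control, M Met, MM Met-Met). Madcam1 is lowest in the Control libraries, and 3 of these hold the highest marker sums. The part of these cells in Madcam1 was not tested. Jchain is low with Mzb1 in Control 4.

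Pigr (chromosome 1), the receptor that carries polymeric IgA through epithelial cells, did not pass the test in any comparison. It was at 103, 119, 115 and 132 scaled FPKM in Control, at 79.9, 135, 146 and 77.9 in Met, and at 91.3, 72.4, 103 and 126 in Met-Met. On scaled values the Control range lay inside the Met range, with Met 2 and 3 above Control and Met 1 and 4 below it. As deposited, Pigr was at 123, 136, 114 and 133 FPKM in Control and at 74.5, 111, 119 and 71.9 in Met. There Met 2 lay below every Control library and Met 3 within their range, so the split depends on the scaling. Scaled means were 117 ± 12.1, 110 ± 35.8 and 98.2 ± 22.4. Met differed from Control by −0.15 log2 units, with a 95% interval from −0.62 to 0.33 (limma adjusted p = 0.652). Met-Met differed from Control by −0.28 (−0.75 to 0.20, adjusted p = 0.396) and from Met by −0.13 (−0.60 to 0.35, adjusted p = 0.740). These intervals still hold changes in either direction. Over the alternatives the difference of Met from Control ran from −0.458 to −0.00503. Per unit of Epcam, an epithelial surface protein, Pigr was 0.848 to 1.07 in Control, 0.627 to 0.936 in Met and 0.512 to 0.824 in Met-Met.

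The Pigr window (plus strand, chr1:130826434-130826733) is shown because it alone of the 6 held the STAT letters TTCNNNGAA, in capitals, from 39 to 47 bases after the start. The letters read alike on both strands and were in 8.30% of all windows.
Pigr: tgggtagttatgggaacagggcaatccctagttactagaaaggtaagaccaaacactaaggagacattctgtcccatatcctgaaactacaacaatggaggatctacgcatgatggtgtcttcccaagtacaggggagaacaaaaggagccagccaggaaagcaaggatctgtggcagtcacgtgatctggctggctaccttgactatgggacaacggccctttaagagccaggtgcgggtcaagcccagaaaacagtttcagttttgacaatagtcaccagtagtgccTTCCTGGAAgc

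Fcgrt (chromosome 7), whose receptor binds IgG inside cells and moves it across them, was lower in Met than in Control. It was at 15.4, 16.0, 20.6 and 15.6 scaled FPKM in Control, at 11.4, 12.01, 14.1 and 12.1 in Met, and at 13.8, 11.3, 11.8 and 16.4 in Met-Met. All Met libraries lay below all Control libraries, while Met-Met 4 reached into the Control range. Means were 16.9 ± 2.48 in Control, 12.4 ± 1.18 in Met and 13.3 ± 2.33 in Met-Met. Fcgrt fell by 0.41 log2 units in Met (SE 0.12, limma adjusted p = 0.0305). Met-Met against Control gave −0.32 (95% interval −0.59 to −0.05, adjusted p = 0.0878) and Met-Met against Met gave 0.08 (−0.19 to 0.36, adjusted p = 0.697). The Met call rested on single libraries: without Control 2, Control 3, Met 1, Met 2 or Met 4 in turn, the adjusted p was 0.0556, 0.0814, 0.0776, 0.0609 and 0.0508. It was 0.183 with the B cell marker covariate, where the fold change was −0.35, and 0.564 without the 6 libraries with B cell markers, where it was −0.30, and the alternatives ran from 9.26e-04 to 0.564.

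The Fcgrt difference was uneven between its transcripts, a split examined after the values were seen. ENSMUST00000003512, which held 52.0% of the gene's FPKM, was at 13.2, 12.5, 12.1 and 11.99 FPKM as deposited in Control. It was at 3.82, 4.83, 4.30 and 4.47 in Met and at 4.13, 4.07, 5.16 and 6.94 in Met-Met, below every Control library. ENSMUST00000210642, with 45.4%, was at 3.74, 3.79, 8.40 and 2.64 in Control, at 6.86, 5.05, 7.22 and 6.67 in Met, and at 9.23, 6.75, 7.37 and 8.74 in Met-Met. That transcript was lowest in Control 1, 2 and 4, while Control 3 lay above every Met library. By group means the first transcript was higher in Control than in Met or Met-Met and the second was lower. Counting only the transcript of each gene with the highest mean over all 12 libraries, Fcgrt fell by 1.07 in Met and by 1.06 in Met-Met. That transcript was ENSMUST00000003512, which led through its Control mean (12.5 against 4.64 for ENSMUST00000210642). The other had the higher mean in Met (6.45 against 4.35) and in Met-Met (8.02 against 5.07). The choice favours a transcript high in Control, so these 2 differences are given as a description only. How the authors' software divided reads between these overlapping transcripts is not given in the sources used here. B2m, the light chain that Fcgrt needs, ranged from 445 to 876 scaled FPKM and did not pass the test (log2 fold change −0.02 in Met, 0.24 in Met-Met, adjusted p = 0.955 and 0.460).

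Of the 4 genes chosen for their role, 2 were called between Met and Control, Madcam1 higher and Fcgrt lower, where 28.4% of all tested genes were called. Between Met-Met and Control 1 of 4 was called, Madcam1, against 20.2% of all genes. Between Met-Met and Met limma called 0 of 4, against 11.6% of all genes. At an unadjusted p under 0.05 the counts in these 3 comparisons were 3, 2 and 0 of 4, where 40.3%, 35.1% and 28.4% of all genes passed. Madcam1 counts among 13.6% and 10.8% of genes called higher in Met and in Met-Met against Control, and Fcgrt among 14.8% called lower in Met. Groups without overlap were common over all genes, at 26.9% for Met and Control (13.5% higher, 13.3% lower), 27.0% for Met-Met and Control (15.1% and 11.9%) and 16.2% for Met-Met and Met (8.43% and 7.81%).

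**Figure D3:**
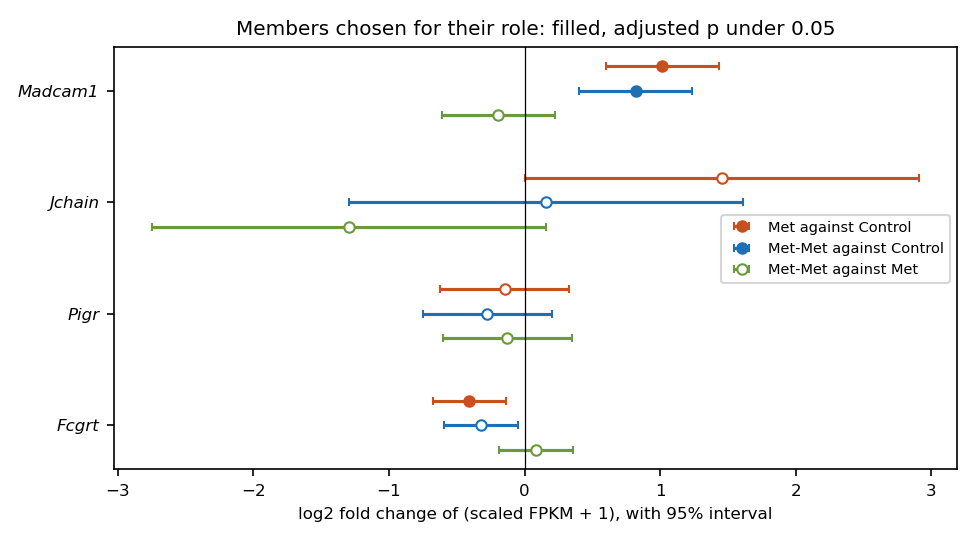
Log2 fold changes of (scaled FPKM + 1) with 95% intervals for Madcam1, Jchain, Pigr and Fcgrt in the 3 comparisons; filled points have an adjusted p under 0.05. Madcam1 lies above 0 in Met (1.02) and Met-Met (0.82) against Control, Fcgrt lies below 0 in Met (−0.41), and the Jchain intervals are the widest.

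The 3 secreted defence proteins were described without tests. Defb1 (chromosome 8), a beta-defensin that disrupts bacterial membranes, was at 3.83, 2.74, 9.23 and 11.8 scaled FPKM in Control, at 31.98, 58.6, 60.4 and 14.3 in Met, and at 18.2, 33.4, 7.54 and 20.8 in Met-Met. Met lay above Control in every library, with Met 4 nearest to it, and Met-Met overlapped both. Means were 6.89 ± 4.32, 41.3 ± 22.2 and 20.0 ± 10.6, so that Met was 5.99 times and Met-Met 2.90 times Control. Markers of skin keratinocytes, cells that also make defensins, summed to 60.5 in Met 2 and to 6.52 to 22.8 in the other libraries. Defb1 was at 60.4 in Met 3, where that sum was 9.38, and the part of these cells in the Defb1 levels was not tested.

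Sftpd (chromosome 14), the collectin surfactant protein D that binds sugars on microbes, followed the same order at higher levels. It was at 33.5, 42.9, 138 and 134 scaled FPKM in Control, at 367, 501, 491 and 285 in Met, and at 213, 214, 114 and 144 in Met-Met. Met did not overlap either group, and Met-Met overlapped Control 3 and 4 but lay above Control 1 and 2. Means were 87.3 ± 56.9 in Control, 411 ± 104 in Met and 171 ± 50.4 in Met-Met, which put Met at 4.71 times Control and 2.41 times Met-Met. Sftpd per unit of Pigr was 0.325 to 1.21 in Control, 3.38 to 4.59 in Met and 1.10 to 2.95 in Met-Met. Pigr itself ranged 2.01-fold over the libraries, and Sftpd was picked for its Met level, so this ratio is a description only.

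Lao1 (chromosome 4), an L-amino acid oxidase of mouse milk that releases hydrogen peroxide, was the most abundant of the 8 in every group. It was at 704, 871, 983 and 718 scaled FPKM in Control, at 1440.3, 1641, 1857 and 1426 in Met, and at 958, 912, 779 and 1119 in Met-Met. The 4 Met libraries stood above all 8 others, and Met-Met overlapped Control. Means were 819 ± 133, 1591 ± 203 and 942 ± 140, so that Met was 1.94 times Control and Met-Met 1.15 times Control. Met-Met minus Met was −0.76 log2 units for Lao1, −1.27 for Sftpd and −0.98 for Defb1. With FPKM as deposited, where the median of all genes shifted by −0.25 between Met and Control, the Lao1 difference was 0.65 in place of 0.96.

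Met 4 was the lowest Met library for Ccl28, Defb1, Sftpd, Lao1 and Pigr. It was not the lowest for Madcam1, Jchain or Fcgrt, where Met 1 was. With each library left out in turn, differences of Met minus Control ran from 1.44 to 2.42 for Ccl28 and from 2.10 to 2.83 for Defb1. They ran from 2.10 to 2.77 for Sftpd and from 0.89 to 1.05 for Lao1. These 4 genes were picked for their Met levels in these same libraries. The direction of these ranges therefore follows from that choice and lends no support.

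The order of the levels changed between groups. In Control it was Lao1, Pigr, Sftpd, Jchain, Fcgrt, Defb1, Madcam1 and Ccl28, and the neighbours Pigr and Sftpd, Sftpd and Jchain, Jchain and Fcgrt, and Madcam1 and Ccl28 overlapped in range. In Met it was Lao1, Sftpd, Pigr, Jchain, Defb1, Fcgrt, Ccl28 and Madcam1. There Sftpd stood above Pigr and Defb1 above Fcgrt without overlap, whereas Pigr and Jchain, Jchain and Defb1, Fcgrt and Ccl28, and Ccl28 and Madcam1 overlapped. In Met-Met the order was that of Met except that Madcam1 stood above Ccl28, without overlap. Sftpd and Pigr, Jchain and Defb1, and Defb1 and Fcgrt overlapped in Met-Met.

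Across the 12 libraries, likeness was measured as the root mean square difference of log2 levels after each gene was centred on its mean, as a description over libraries that share depth and makeup. Ccl28 was nearest to Fkbp5, a co-chaperone of steroid receptors, and to Doc2b, a calcium sensor of vesicle release, both at 0.39. Fkbp5 was at 14.2 to 16.7 scaled FPKM in Control, at 51.6, 86.1, 75.0 and 25.9 in Met and at 12.4 to 18.6 in Met-Met. Its pattern, with Met 4 the lowest of Met, follows from its choice as the gene nearest to Ccl28. Defb1 and Sftpd were each other's nearest gene, at 0.46, and Defb1 was 0.0501 to 0.156 of Sftpd in every library. The casein Csn1s2b was next to Defb1 (0.55) and Trim55, a muscle ring finger protein, next to Sftpd (0.49).

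The other members varied less over the libraries, apart from Jchain, and had closer neighbours. Madcam1 was nearest to the potassium channel Kcnk1 (0.16) and to Serp1, a stress protein of the endoplasmic reticulum (0.18). Pigr was nearest to Hadhb, a subunit of the mitochondrial fatty acid oxidation complex, and to Phf13, a chromatin protein, both at 0.16. Fcgrt was nearest to Unc93b1, which delivers nucleic acid sensing Toll-like receptors (0.12), and to Sqor, which oxidises sulfide (0.13). Lao1 was nearest to the tetraspanin Tspan7 (0.17) and the sugar reductase Dcxr (0.18), and after Mzb1 the gene nearest to Jchain was S100a9, a calprotectin subunit (0.66).

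**Figure D4:**
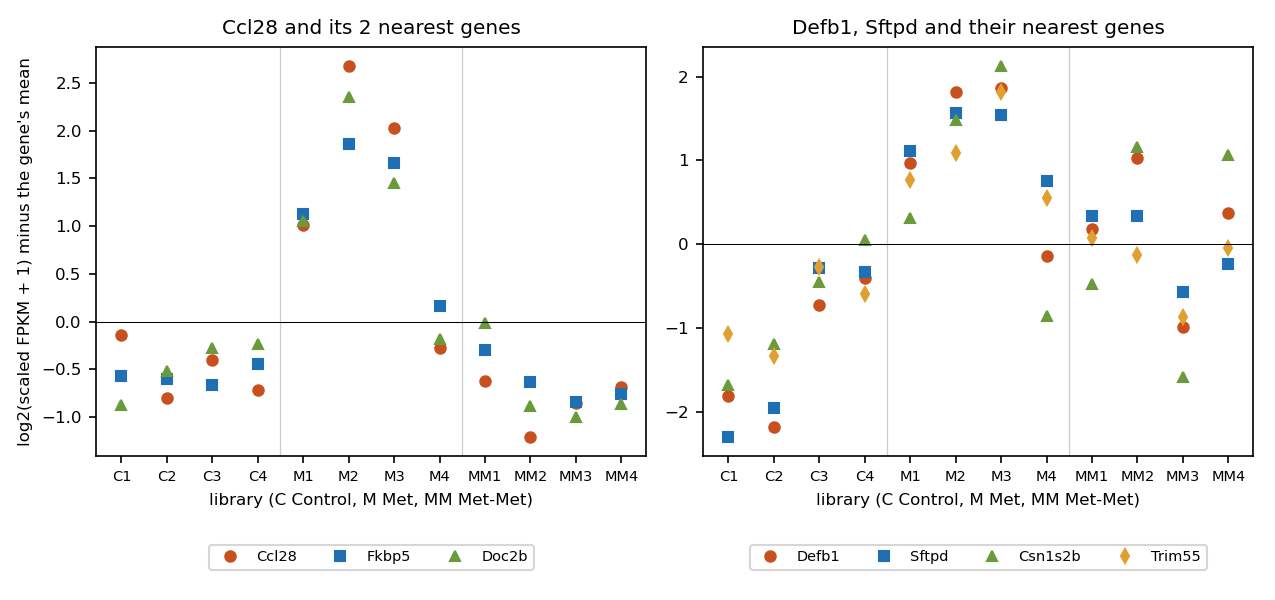
Log2(scaled FPKM + 1) minus each gene's mean in the 12 libraries (C Control, M Met, MM Met-Met), for Ccl28 with Fkbp5 and Doc2b on the left and for Defb1 and Sftpd with Csn1s2b and Trim55 on the right. Ccl28 and both neighbours are high in Met 1 to 3 and lower in Met 4, a likeness for which the neighbours were picked. Csn1s2b departs from Defb1 most in Control 2.

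Other genes of milk defence were followed through 5 lists with 90 genes, of which 87 were in the tables (Igha, Ighm and Igkc were not analysed here) and 66 were tested. Between Met and Control 15 were called higher and 5 lower (30.3% of 66, against 28.4% of all genes). Between Met-Met and Control 10 were higher and 3 lower (19.7%, against 20.2%, with 9.40% of all genes lower), and between Met-Met and Met 8 were higher and 6 lower (21.2%, against 11.6%, of which 5.94% higher and 5.66% lower). The first 2 shares are near that of all genes. With FPKM as deposited the higher and lower calls were 10 and 16, 6 and 4, and 13 and 2. Without the 6 libraries with B cell markers limma called 0 of 66, 0 of 66 and 5 of 66 genes, and 22, 9 and 25 of 66 at an unadjusted p under 0.05, where 17.2%, 12.7% and 23.5% of all genes passed in the same fits.

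Among 16 tested antimicrobial proteins, 6 rose and 2 fell in Met (50%, against 28.4% of all genes), with a list median of 0.28 log2 units against 0.01 over all genes. Wfdc2, a whey acidic protein family inhibitor, rose from 1.02 ± 0.237 to 4.20 ± 0.659 scaled FPKM (log2 fold change 1.36, adjusted p = 7.58e-05). Pglyrp1, which binds bacterial peptidoglycan, rose from 33.6 ± 6.69 to 86.4 ± 8.05 (1.36, adjusted p = 2.29e-04). Slpi, an antiprotease with antibacterial activity, rose from 18.2 ± 2.24 to 37.5 ± 9.91 (0.98, adjusted p = 0.00561), and Chil1, a chitinase-like protein, fell from 10.1 ± 1.41 to 4.25 ± 1.74 (−1.12, adjusted p = 0.00122). These 4 calls were kept when any 1 library was left out, and none of the 4 was kept without the libraries with B cell markers, a fit with a single Control library (adjusted p 0.102 to 0.266). The fold changes there were 1.06 for Wfdc2, 1.23 for Pglyrp1, 1.10 for Slpi and −0.94 for Chil1.

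In the Met-Met group, 4 antimicrobial proteins rose against Control and 1 fell (31.2%, against 20.2% of all genes), with a list median of 0.08. Wfdc2 reached 2.97 ± 0.531 (0.97, adjusted p = 9.58e-04) and Pglyrp1 64.8 ± 10.1 (0.94, adjusted p = 0.00241). Lbp, which hands bacterial lipopolysaccharide to its receptor, stood at 88.1 ± 15.7 against 36.4 ± 11.8 in Control (1.29, adjusted p = 0.00520). Lcn2, which withholds iron from bacteria, stood at 847 ± 180 against 397 ± 113 (1.11, adjusted p = 0.00720), a call lost with the B cell marker covariate (adjusted p = 0.0548). The calls of Wfdc2, Pglyrp1, Lbp and Lcn2 against Control were all lost without the 6 libraries with B cell markers, a fit with a single Control library. Against Met, Lbp and Chil1 were higher in Met-Met (1.03 and 0.87, adjusted p = 0.0229 and 0.0110) and Slpi was lower (−0.95, adjusted p = 0.0142). Without the 3 libraries with high Gm26917 the Chil1 and Slpi calls were lost (adjusted p = 0.0889 and 0.0759), as they were without the 6 libraries with B cell markers (0.160 and 0.0999). The Lbp call against Met was lost without Met 1 (adjusted p = 0.0643) or without 3 of the Met-Met libraries in turn, and reached 0.109 at most over its alternatives.

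Of 15 tested genes of antibody transport, 3 rose and 0 fell in Met (20.0%, against 28.4% of all genes), with a median of 0.28. Mal2, which works in the transcytosis route that Pigr uses, rose to 58.8 ± 6.81 in Met and to 57.6 ± 2.53 in Met-Met from 38.6 ± 4.22 (0.59 and 0.57, adjusted p = 0.00157 and 0.00297). All 8 Mal2 libraries of Met and Met-Met lay above the 4 of Control. Over all tested genes, 13.5% lay wholly above Control in Met and 15.1% in Met-Met. Both Mal2 calls were lost without the 6 libraries with B cell markers, a fit with a single Control library. The endosomal Rab5a (0.30, adjusted p = 0.0203) and the kinase Yes1 (0.42, adjusted p = 0.0431) were also called in Met. Both calls were lost without Control 1 (adjusted p = 0.0611 and 0.114), Control 2 (0.0617 and 0.0936) or Met 3 (0.0565 and 0.0872). The Yes1 call was lost without other libraries too. With FPKM as deposited, Rab5a stood at −0.01 and the Yes1 call was lost (adjusted p = 0.488). In Met-Met against Met, the cytokine receptor Tnfrsf1a was called higher (0.27, adjusted p = 0.0350), while the transcription factor Relb (−0.49, adjusted p = 0.0335) and the interferon receptor Ifngr1 (−0.52, adjusted p = 0.0377) were called lower. Each of these 3 calls was lost without Met 1 (adjusted p = 0.0859, 0.0896 and 0.0920) and without at least 3 other libraries in turn.

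Of 10 tested genes of plasma cell homing, 0 rose and 2 fell in Met, and 0 rose and 2 fell in Met-Met (20.0% each, against 28.4% and 20.2% of all genes). Vcam1, an endothelial ligand of integrins that hold Itga4, was at 5.11 ± 1.15 in Met-Met, 9.56 ± 2.31 in Control and 9.28 ± 1.79 in Met. It fell in Met-Met against Control (−0.78, adjusted p = 0.0120), a call that the B cell marker covariate took to 0.0701. This call was also lost without the 6 libraries with B cell markers, a fit with a single Control library. Against Met, Vcam1 fell too (−0.75, adjusted p = 0.0212), a call lost without Met 2 (0.0567), Met-Met 2 (0.0562) or Met-Met 4 (0.0672). It was lost as well with FPKM as deposited (0.0602) and without the 3 libraries with high Gm26917 (0.119). Cxcr4, the receptor that takes plasma cells to Cxcl12, fell in both groups (−0.97 and −1.05, adjusted p = 0.0270 and 0.0247). Its calls were lost with the B cell marker covariate (adjusted p = 0.422 and 0.141) and without Control 1, 2 or 3 in turn (0.0629 to 0.0820 and 0.0619 to 0.0767), among others, and its highest levels were in Control 1 to 3, the libraries with the most B cell markers.

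Of 8 tested genes of the antibody-secreting cell, 1 rose in Met, 2 in Met-Met, and none fell (12.5% and 25.0%, against 28.4% and 20.2% of all genes). Sdc1, the surface marker of plasma cells that epithelium also makes, was at 16.7, 16.2, 16.6 and 16.0 in Met-Met, above the 11.3 to 13.3 of Control and the 10.2 to 12.2 of Met (0.38 and 0.50, adjusted p = 0.00548 and 0.00298). On deposited FPKM, Sdc1 missed the threshold against Control (adjusted p = 0.0742), and both calls were lost without the libraries with B cell markers (0.491 and 0.0890). Xbp1, a transcription factor of secretory cells, was called in Met (0.56, adjusted p = 0.0351). Tnfsf13, a survival factor of plasma cells, was called in Met-Met (0.99, adjusted p = 0.0433), with 30.8 in Met-Met 2 and 9.04 to 9.44 in the other Met-Met libraries. Both calls were lost without Control 1 (adjusted p = 0.101 and 0.0948), without Control 2 (0.0947 and 0.0978) and without other libraries.

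Of 17 tested genes of microbe sensing, complement and mucins, 5 rose and 1 fell in Met (35.3%, against 28.4% of all genes). In the Met-Met group, 3 rose and 0 fell against Control (17.6%, against 20.2%), and 4 were higher and 2 lower against Met (35.3%, against 11.6%). Tlr4, the lipopolysaccharide receptor, rose from 13.1 ± 2.70 to 23.5 ± 2.62 (0.81, adjusted p = 9.71e-04), and its partner Ly96 from 9.20 ± 2.86 to 28.1 ± 13.1 (1.45, adjusted p = 0.00366). The Ly96 call was lost with the B cell marker covariate (adjusted p = 0.0631). Met-Met held Tlr4 at 16.6 ± 0.305, lower than Met (−0.47, adjusted p = 0.0301), but this call was lost in 7 of the 12 leave-one-library-out fits, with adjusted p up to 0.0807. Lgals3bp, a secreted lectin-binding protein, was higher in Met-Met (46.3 ± 7.71) than in Met (24.3 ± 3.30), by 0.90 log2 units (adjusted p = 0.00224), a call that all 24 alternatives kept. Against Control (32.0 ± 1.80) it was higher by 0.51 (adjusted p = 0.0160), a call lost without Control 2 (0.0517) and with FPKM as deposited (0.0748), among others. Myd88, the adaptor of Toll-like receptors, was at 18.2 ± 1.48 in Met-Met, 14.1 ± 0.894 in Met and 14.0 ± 0.265 in Control (0.35 in both comparisons, adjusted p = 0.0123 and 0.00685). On deposited FPKM, Myd88 missed the threshold against Control (0.23, adjusted p = 0.0881), and its call against Met was lost with only the 8 libraries compared (0.05002). Muc4, a membrane mucin, was at 29.9 ± 5.37 in Met-Met and 14.8 ± 0.578 in Met (0.95, adjusted p = 0.0195), a call lost without Met-Met 1 (0.0522). Mfge8, the milk fat globule protein lactadherin, rose from 593 ± 149 in Control to 1051 ± 270.5 in Met (0.82, adjusted p = 0.0154), a call lost without Control 2 (0.0508) and with the B cell marker covariate (0.159). Muc1, a mucin of the milk fat globule membrane, was at 59.5 ± 20.6 in Control, 105.5 ± 19.7 in Met and 114 ± 38.3 in Met-Met (0.85 and 0.91, adjusted p = 0.0345 and 0.0332). Each of its calls was lost in 6 of the 12 fits that leave out a library, with adjusted p up to 0.0887 and 0.0901.

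**Figure D5:**
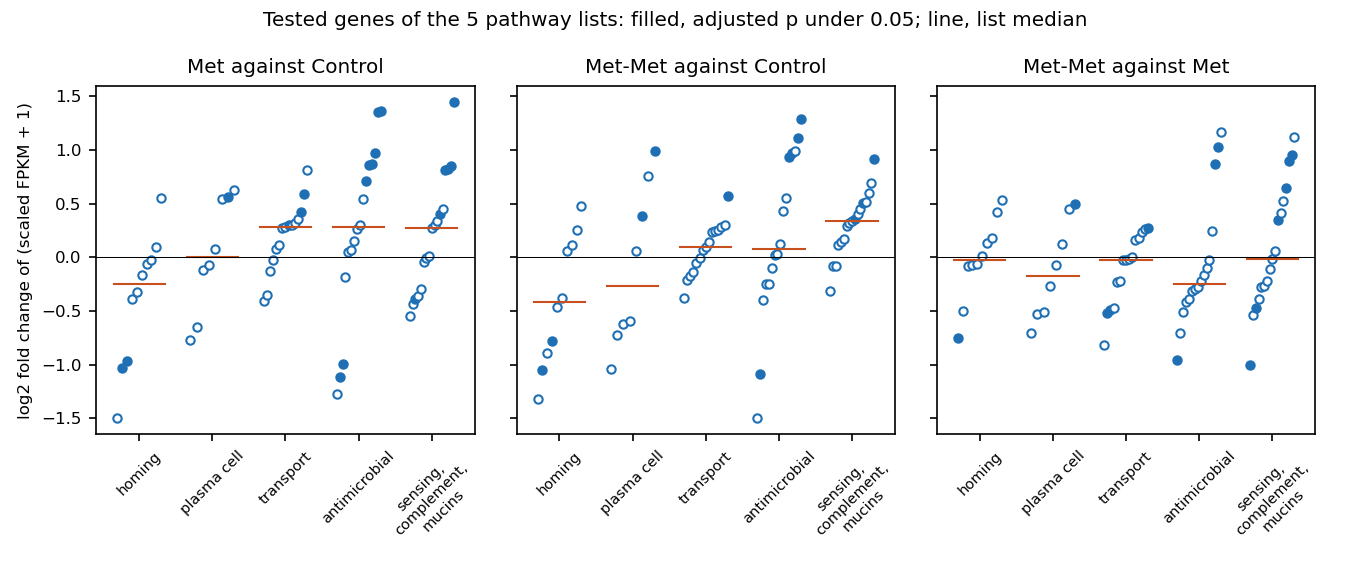
Log2 fold changes of (scaled FPKM + 1) of the 66 tested genes of the 5 lists in the 3 comparisons, with filled points at an adjusted p under 0.05 and a line at each list's median. Filled points are most frequent in the antimicrobial list in Met (8 of 16), and only lower calls appear in the homing list.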

How the data were processed

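RNA was extracted with TRIzol and made into Illumina libraries, per the labels' protocols. The deposited values are FPKM per transcript that the authors calculated, in a table for each library. The submitters' processing notes name StringTie 1.3.1, HISAT2 2.0.4 and Bowtie2 2.2.8, with mm9 and GRCm38 as builds, and their roles are not given in the sources used here. The total depth is unknown. Among low genes with 1 transcript, ratios between libraries piled up at 1 value, which put relative depth between 0.884 and 1.16 of Control 1.

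FPKM of 55869 transcripts were summed per gene. Libraries were scaled by the median over genes of their ratio to the average library (divisors 0.815 to 1.20). Genes averaging 1 FPKM or more (11809) were fitted on the log2(FPKM + 1) scale by limma 3.58.1 under R 4.3.3, using 3 group means, an intensity trend and Benjamini-Hochberg adjustment. The script was tested on simulated data. Python 3.11.15, numpy 2.4.6 and matplotlib 3.10.9 made tables and figures. Where a listed symbol had several gene identifiers, that with the highest mean was used.

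Members and lists were chosen with earlier results of these data known. Text names all members, up to 4 called genes per list and comparison with the smallest p, and the 2 genes most like each member. Marker genes are named where a member is compared with their list, and Ccr10, Ccl27a, Itgb7 and B2m as partners of members, these 4 chosen after their values were seen. Alternatives were FPKM as deposited, quantile normalization, a pseudocount of 0.1, no filter, a minimum mean of 5 FPKM, a fit to only the 8 libraries compared, the replicate number as a block, 1 transcript per gene, the B cell marker mean as covariate, and leaving out single libraries, those with B cell markers (a mean of at least 1) or those with Gm26917 above 1000 FPKM. The luminal marker mean as covariate was added after seeing the data. The lncRNA tables were read only for Gm26917.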

Additional observations from a re-analysis of the deposited data

Results flagged for a closer look

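Fcgrt in Control 3, at 20.6 scaled FPKM, stood apart from the other Control libraries (15.4, 16.0 and 15.6): its gap to the nearest was 0.882 of the group's range, above Dixon's 95% critical value for 4 samples. It was the only 1 of 24 checks over the 8 genes and 3 groups to pass that limit, and chance passes about 1 in 20. Without Control 3, Fcgrt was lower in Met by −0.31 log2 units (adjusted p = 0.0814 with limma) in place of −0.41.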

How the results depend on the processing

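Without the 6 libraries with B cell markers, which leaves Control 4 alone and takes its spread from the other groups, limma called 8 genes in Met against Control, 5 in Met-Met against Control and 450 in Met-Met against Met, in place of 3357, 2389 and 1369. Pathway genes then numbered 0, 0 and 5 in place of 20, 13 and 14. The fold changes of Madcam1 were 1.00 and 0.851, of Jchain 3.55 and 1.91 against Control, of Fcgrt in Met −0.296 and of Itga4 in Met 0.174. With the B cell marker covariate there were 1423 and 1368 genes and 6 and 7 pathway genes against Control, Jchain in Met was at 2.62 and Fcgrt at −0.354. Met-Met against Met had 746 genes with its 8 libraries alone, 910 without high Gm26917 and 2570 with the luminal covariate, with 8, 8 and 22 pathway genes. A minimum mean of 5 FPKM, which tests fewer genes and omits Madcam1, left 2209 genes in Met against Control.

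With FPKM as deposited, 352 genes were higher and 4299 lower in Met against Control (1610 and 1747 scaled), 499 and 1583 in Met-Met against Control (1279 and 1110) and 1556 and 274 in Met-Met against Met (701 and 668). The median of all genes then shifted by −0.25, −0.12 and 0.15. Fcgrt in Met-Met was at −0.451, Pigr in Met-Met against Met at 0.0488 and Rab5a in Met at −0.00617. With 1 transcript per gene, Fcgrt in Met-Met was at −1.06 and Madcam1 in Met-Met against Met at 0.0357. Without high Gm26917, Fcgrt in Met was at −0.479 (adjusted p = 0.0520) and Pigr in Met-Met against Met at 0.0261. The cause of these changes was not tested.

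Replicate numbers are shared by the groups but did not pair the libraries: deviations of same-numbered libraries correlated at −0.409 to 0.170. With the replicate block, Met-Met against Met had 846 genes and 9 pathway genes, and Fcgrt in Met was at −0.407 with an adjusted p of 0.0530.

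Leaving out each library in turn gave 2114 to 3570, 1315 to 2732 and 666 to 2302 genes in the 3 comparisons, in the order above, and 10 to 26, 9 to 24 and 6 to 18 pathway genes. Fcgrt ranged from −0.466 to −0.313, from −0.422 to −0.229 and from −0.0147 to 0.153, the only reversal being without Met-Met 4 (−0.0147). Jchain ranged from 0.814 to 2.01, from −0.480 to 0.717 and from −1.61 to −0.870, with reversals in Met-Met against Control without Control 4 (−0.480) and Met-Met 1 (−0.0568). Pigr ranged from −0.303 to −0.00503, from −0.403 to −0.140 and from −0.270 to 0.0276, with reversals in Met-Met against Met without Met 3 (0.0276) and Met-Met 2 (0.00833). Unknown total depth leaves the precision of low genes such as Ccl28 and Madcam1 unknown.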
